A study of Malus domestica with 2 samples.

Results

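The genes described here are the heat shock proteins and molecular chaperones of apple pedicels, the stalks on which single fruits of a cluster hang. They were measured in Malus domestica of the cultivar Saika, in 1 library of lateral pedicel tissue and 1 library of central pedicel tissue, each made from mRNA and read by GS-FLX pyrosequencing. Per the series title the cultivar sheds young fruits by itself, and both libraries come from that same cultivar. The labels give no treatment, age, sampling time or number of trees for either library. There is 1 library per group, so nothing below has a replicate check, and a test on sequence counts sets 1 library against the other without reaching the kinds of pedicel behind them. In bulk tissue, fewer cells of a type and less RNA per cell cannot be told apart.

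Members were the gene models whose authors' annotation contains the words heat shock, Hsp20, Hsp70, Hsp90, DnaJ, chaperonin or chaperone, either in the table of all gene models or on the 2 deposited sheets of differing genes, headed LP and CP. A match was kept when it had at least 1 mapped sequence over both libraries or an entry on a sheet. This gave 132 members of 63541 gene models. Of the members, 115 were found by the table's annotation, 9 by the sheets' annotation and 8 by both. The members were thus selected on their sequence counts and chosen by the sheets, so their counts and entries are given as a description. The edge of the rule lay at a single sequence: 42 members had exactly 1, and 233 matching gene models with no sequence and no entry were left out. A histone chaperone resembling ASF1 was left out by the rule.

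Molecular chaperones help proteins to fold, keep unfolded ones from clumping and hand damaged ones on to repair or breakdown. HSP70 binds stretches of unfolded protein in a cycle driven by ATP, and DnaJ proteins, also called HSP40, bring clients to it and speed up that cycle. HSP90 finishes the folding of signalling proteins with the help of co-chaperones, HSP100 pulls proteins out of aggregates, small HSPs hold unfolded proteins in a soluble state, and chaperonins enclose a protein in a barrel while it folds. In plants, heat shock transcription factors switch many of these genes on under heat and other stress, while other members work all the time in the cytosol, plastids and mitochondria.

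Counts per gene model were low. Mapped sequences numbered 18368 in the lateral library, spread over 13457 gene models, and 18483 in the central library, over 13544, and per the file headers they were contigs. Counts of contigs do not measure how deeply a library was read. The highest count of any gene model was 9 in the lateral and 10 in the central library. A count of 0 allows up to 3 sequences, or 0.0163% of the lateral and 0.0162% of the central library, for counting error only. Sums were taken of 5 marker lists, for cell types a pedicel can hold and for pollen. They were 22 lateral and 21 central sequences for chloroplast-bearing cells, 27 and 20 for epidermis, 15 and 11 for xylem, 2 and 3 for phloem, and 30 and 26 for pollen, in that order of libraries. The interval of the ratio of lateral to central included 1 for every one of these lists. In the same order, the lists had 17, 7, 5, 2 and 5 entries on the LP sheet. On the CP sheet they had 8, 12, 1, 1 and 6. The part of these lists in any value below was not tested. The pollen words also match proteins of other tissues, so the sequences of that list do not show pollen.

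Summed over all members, the lateral library held 134 chaperone sequences and the central library 145. As a share of the library this was 0.730% in the lateral (95% exact Clopper-Pearson interval 0.612% to 0.863%) and 0.785% in the central library (0.662% to 0.922%). The ratio of lateral to central was 0.930 (exact conditional binomial interval 0.730 to 1.18), which includes 1, and a difference within these bounds was not detectable at these counts. Intervals cover counting error alone and treat the sequences as independent of each other, although contigs of 1 transcript depend on each other, and how many reads stand behind each contig is not known here.

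**Figure D1:**
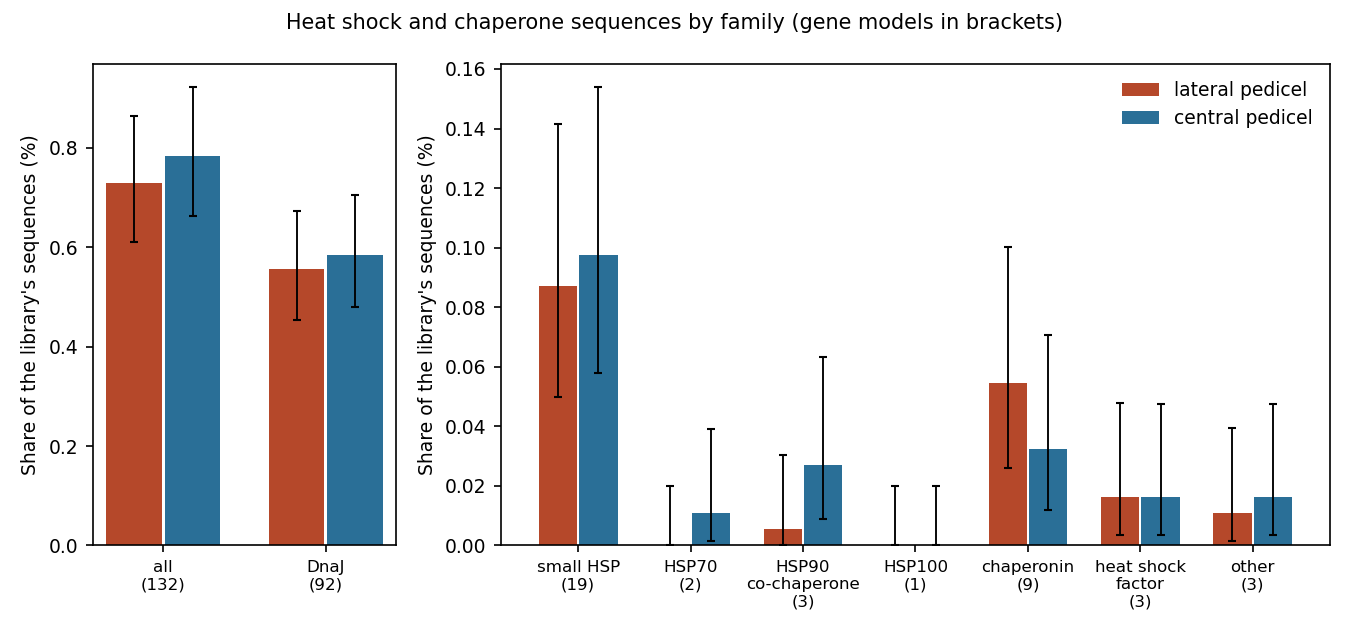
Share of each library's mapped sequences (vertical axis, percent) taken by all members, by DnaJ proteins (left panel) and by the smaller families (right panel, finer scale), with lateral pedicel bars left of central ones and 95% exact intervals as error bars. The 2 intervals overlap in every family, and DnaJ proteins with 0.555% and 0.584% make up most of the group.

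Of the 127 members with a sequence, 69 had at least 1 in both libraries, 28 only in the lateral and 30 only in the central library. Among all 18337 gene models with a sequence, 47.2% had one in both libraries, and among the members 54.3%. The lateral count was the larger for 39 members, the central count for 49, and 39 had equal counts. These are 30.7%, 38.6% and 30.7% of the members, against 35.4%, 36.2% and 28.4% of all gene models with a sequence. The commonest pair of counts was 1 and 1, in 33 members. The median log2 ratio of lateral to central was 0.01 over the 127 members with 0.5 added to each count, and it was also 0.01 over all 18337 gene models. Over the 69 members with a sequence in both libraries, with nothing added, it was 0.01 again.

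**Figure D2:**
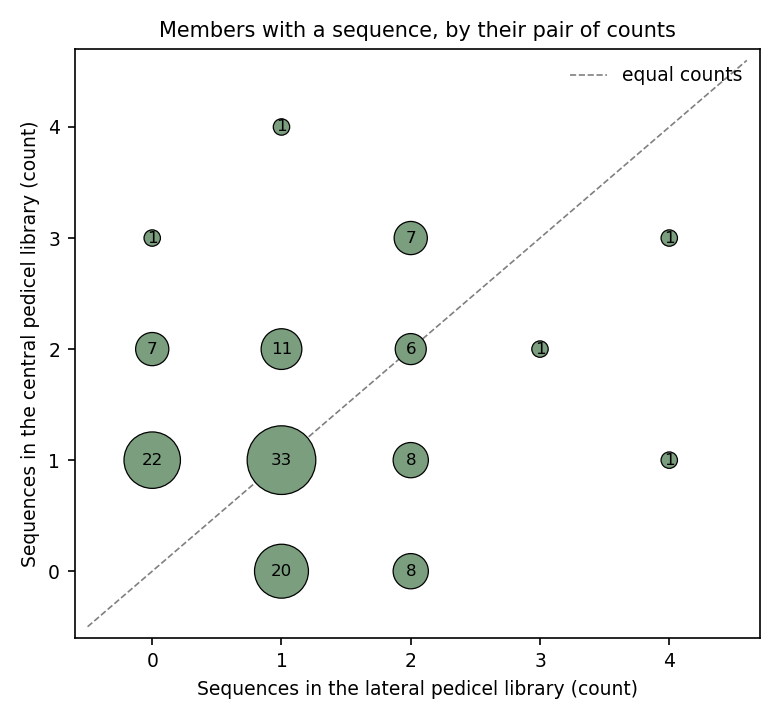
Members with a sequence placed by their lateral count (horizontal axis) and their central count (vertical axis), with circle area growing with the number of members, which is printed inside. The dashed line marks equal counts, and the largest circle, of 33 members, stands at 1 and 1, while no member passes 4 in either library.

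A two-sided Fisher exact test of each gene model's sequences against all other sequences of the library, with Benjamini-Hochberg adjustment over all gene models with a sequence, called 0 of the 127 members. A call needed an adjusted p under 0.05 together with a difference of 2-fold or more. Over all 18337 gene models 0% were called. No gene model had more than 16 sequences over both libraries, so this background says little either. At an unadjusted p under 0.05 there were 0 members and 4 gene models in all, while the negative binomial exact test of edgeR gave 0 and 0 at that threshold. The smallest unadjusted p of a member was 0.217. At the highest total of a member, 7 sequences, the smallest p the Fisher exact test can give is 0.00764, so the test could not have called any member at whatever split. It does not bear on whether chaperone genes differed between the pedicels.

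DnaJ proteins were by far the most numerous family. They made up 92 of the 132 members and 210 of the 279 member sequences, or 75.3%, with 102 sequences in the lateral and 108 in the central library. The ratio of lateral to central was 0.950 (interval 0.718 to 1.26). Of the 91 DnaJ models with a sequence, 49 had one in both libraries, 21 only in the lateral and 21 only in the central library. Uniquely mapped sequences numbered 89 lateral and 90 central.

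Within the family most members carry the N-terminal J domain, the part that touches HSP70: 74 models with 85 lateral and 92 central sequences. The cysteine-rich region, a zinc-binding part that helps to hold clients, named 4 members, with 5 lateral and 3 central sequences. The peptide-binding part named 2 more, with 2 lateral and 1 central sequences. Another 11 carry the family name molecular chaperone Hsp40 with the identifier PTHR11821, and held 10 lateral and 12 central sequences. Of these 11, 3 have an entry on a sheet, and there they are named differently. MDP0000241185 and MDP0000277813 are listed as duplicated homeodomain-like proteins and MDP0000335890 as RAD-like 6, names of MYB-type DNA-binding proteins, and all 3 carry the gene ontology term of DNA binding. For these 3 models the label of chaperone therefore rests on the table alone and goes against the sheets, and the other 8 have no second annotation to set beside it. Without all 11 models the ratio of lateral to central was 0.964 for DnaJ proteins.

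The member with most sequences was MDP0000312998, a J-domain protein with 4 lateral and 3 central sequences. On a model of 4323 bases these counts correspond to an RPKM, the count scaled by model length and library total, of 50.4 in the lateral and 37.6 in the central library. MDP0000135666, also a J-domain protein, had 1 lateral and 4 central sequences, a ratio of lateral to central of 0.252 with an exact interval of 0.00511 to 2.54. A further 7 J-domain models had 2 lateral and 3 central sequences each, namely MDP0000156339, MDP0000173406, MDP0000248475, MDP0000262910, MDP0000272026, MDP0000297753 and MDP0000646524. MDP0000292545 had 3 lateral and 2 central sequences. Of the 11 members with 5 or more sequences, 10 were thus J-domain proteins, and both libraries held each of them. The J-domain models with a sequence were long, with a median of 1473 bases, against 1107 bases for all models with that annotation, and counts are not scaled by length. The steepest split without a lateral sequence, chosen after its value was seen, was 0 lateral and 3 central sequences in MDP0000186417, a J-domain protein, of which 1 was uniquely mapped.

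Few gene models annotated as HSP70, the partner of DnaJ proteins, had a sequence. HSP70 had 2 members, and both had 0 lateral and 1 central sequence: MDP0000274009, annotated as Hsp70 in the table, and MDP0000314756, listed as heat shock protein 70 on the CP sheet and matched there to AT3G12580.1. In all, 24 gene models were annotated as HSP70, so 8.33% had a sequence, against 28.9% of all gene models and 43.1% of the 211 models annotated as DnaJ proteins. Both gene models annotated as Hsp90 had no sequence and no entry, and neither is a member. The annotated HSP70 models were short, with median lengths of 499.5 bases for the 18 named Hsp70 and 495 bases for the 5 named heat shock protein 70. Since having a sequence is part of the rule, these shares are a description. MDP0000314756 has no such word in the table of all gene models and was found by its sheet name alone. HSP70 models with neither the word nor a sheet entry are therefore missed. Counts of contigs also do not give the level of HSP70 RNA. The part of model length and of sequences shared between near-identical copies was not tested.

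**Figure D3:**
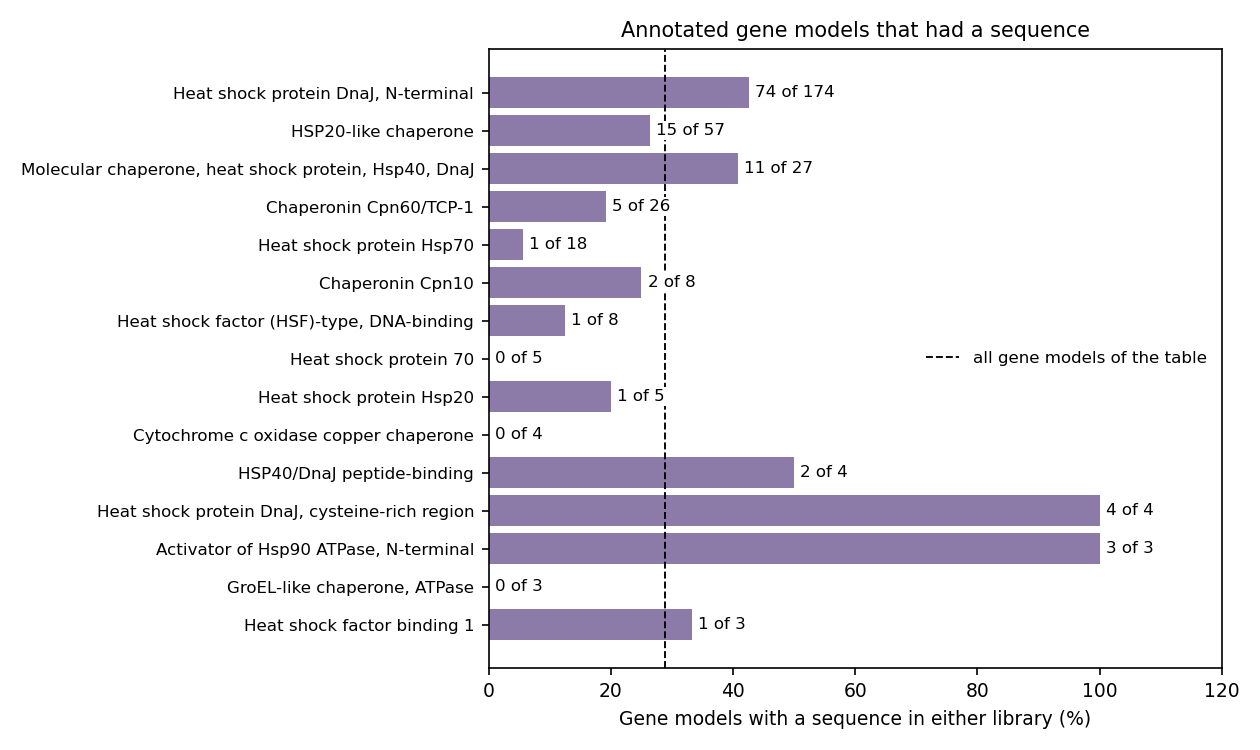
Share of gene models with at least 1 sequence in either library (horizontal axis, percent) for each annotation of the table with 3 or more matching models, with numbers of models printed beside the bars. The dashed line is the 28.9% of all gene models, above which lie the J-domain annotation with 74 of 174 and below which lie Hsp70 with 1 of 18 and the Cpn60/TCP-1 chaperonins with 5 of 26.

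All 3 gene models annotated as activators of the Hsp90 ATPase, co-chaperones of the Aha1 type that speed up the HSP90 cycle, had a sequence. MDP0000389902 and MDP0000932255 had 0 lateral and 2 central sequences each, and MDP0000215062 had 1 in each library. Together they held 1 lateral and 5 central sequences, a ratio of 0.201 whose interval, 0.00425 to 1.80, includes 1. HSP100 was represented by MDP0000637620, listed as heat shock protein 101 on the CP sheet and matched to AT1G74310.1, which in Arabidopsis is needed to survive heat. It had no sequence in either library.

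Small HSPs and their relatives formed the second family, with 19 members, 16 lateral and 18 central sequences. The ratio of lateral to central was 0.894 (interval 0.427 to 1.86). Uniquely mapped sequences were 14 in each library. No small HSP had more than 2 sequences in a library. Those with most sequences were MDP0000276483, with 2 lateral and 1 central, and MDP0000247652, MDP0000522954 and MDP0000700383, each with 1 lateral and 2 central. MDP0000247652 is matched to AT1G53540.1, a cytosolic small HSP of class I in Arabidopsis. Per length, MDP0000247652 reached 115 RPKM in the lateral and 228 RPKM in the central library, on 474 bases. MDP0000176429, on the CP sheet, had 1 sequence in each library, neither of them uniquely mapped, so they may belong to a near-identical copy. Of all 127 members with a sequence, 19 had no uniquely mapped one.

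Chaperonins had 9 members, with 10 lateral and 6 central sequences and a ratio of 1.68 (interval 0.552 to 5.62). Most of these sequences belonged to Cpn10, the lid of the barrel in plastids and mitochondria, whose 2 members held 6 lateral and 3 central sequences. MDP0000364484 had 4 lateral and 1 central, a ratio of 4.02 with an interval of 0.398 to 198. On its 409 bases this gave 532 RPKM in the lateral and 132 RPKM in the central library, the highest RPKM of any member in the lateral library. MDP0000685137, the other Cpn10 member, had 2 in each library. The barrel subunits annotated as Cpn60/TCP-1 had 3 lateral and 3 central sequences over 5 members, none with more than 1 in a library. Without MDP0000364484 the chaperonins held 6 lateral and 5 central sequences, a ratio of 1.21.

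Of 12 gene models annotated as regulators of the heat shock response, 3 had a sequence, with 1 in each library apiece. They were MDP0000243895, listed as heat shock transcription factor A2, which in Arabidopsis keeps the response going under lasting heat, MDP0000925901, with the DNA-binding domain of heat shock factors, and MDP0000347851, a heat shock factor binding protein, which in Arabidopsis dampens the response. Among the remaining members, MDP0000314803, an RbcX-like protein that helps rubisco to assemble, had 1 lateral and 2 central sequences, and MDP0000288252, a chaperone for the mitochondrial ubiquinol-cytochrome c reductase, had 1 in each. None of the 5 copper chaperone models had a sequence.

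Per length, members with a sequence had RPKM values above 0 that ranged in the lateral library over 97 models from 9.70 to 532, with a median of 57.1. In the central library they ranged over 99 models from 11.1 to 230, with a median of 62.7. Over all gene models the medians above 0 were 49.1 in the lateral and 49.3 in the central library, and the members with a sequence were shorter, with a median length of 1158 bases against 1353. At counts this low 1 sequence on a short model gives a high RPKM. The sequences are also contigs, so these values do not give levels of RNA and do not rank the members by expression.

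The authors' deposited sheets, made with the program NOISeq per the file headers, carry 21 of the members, 6 on the LP sheet and 15 on the CP sheet. Of all 63541 gene models, 1.17% are on the LP sheet and 1.33% on the CP sheet. Since a sheet entry was itself a way into the group, no excess can be read from the members' counts. The 21 entries match 21 different Arabidopsis genes. The authors chose both sheets on these same libraries, so they are not independent evidence of a direction.

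**Figure D4:**
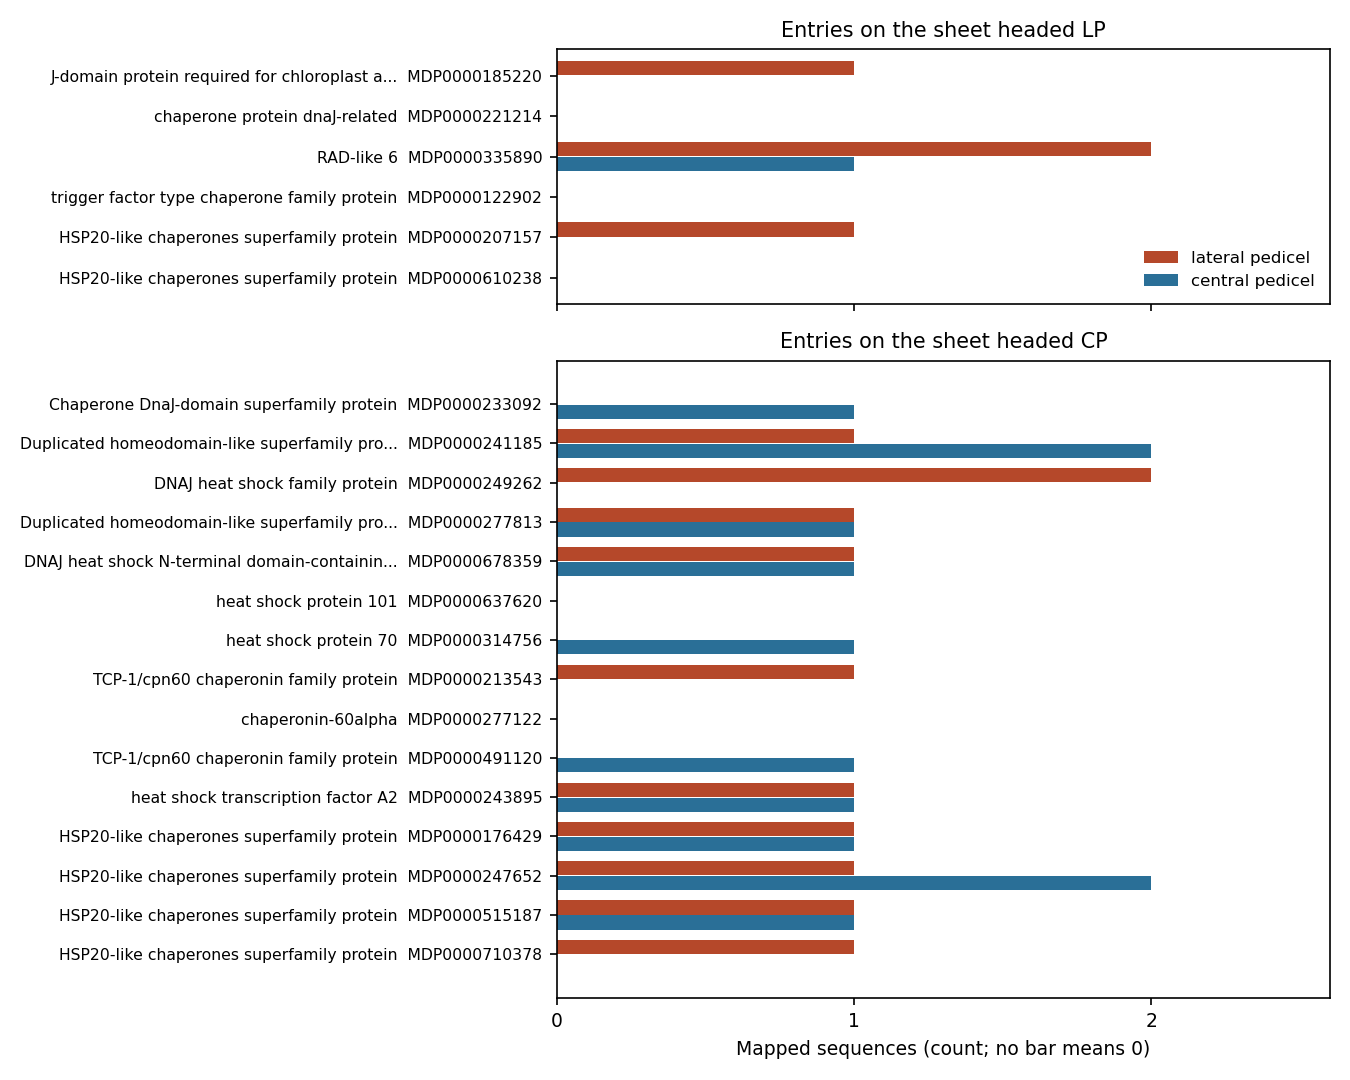
Mapped sequences (horizontal axis, count) in the lateral library (upper bar of each row) and in the central library (lower bar) for the 6 members on the LP sheet and the 15 on the CP sheet, named as on the sheets. No bar is longer than 2 sequences, and 5 entries have no bar in either library.

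Among the CP entries were heat shock transcription factor A2 with 1 sequence in each library, heat shock protein 70 with 0 lateral and 1 central, heat shock protein 101 with none, and the class I small HSP MDP0000247652 with 1 lateral and 2 central. The other small HSP entries were MDP0000176429 and MDP0000515187, each with 1 sequence in each library, and MDP0000710378 with 1 lateral and 0 central. The last is matched to AT4G02450.1, which in Arabidopsis is a p23 protein, a co-chaperone of HSP90 that shares the fold of small HSPs. The chaperonin entries were the plastid subunit chaperonin-60alpha (MDP0000277122) without a sequence, MDP0000213543 with 1 lateral and 0 central, and MDP0000491120 with 0 lateral and 1 central, the last 2 being subunits of the cytosolic TCP-1 barrel.

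The DnaJ entries on that sheet were MDP0000249262 with 2 lateral and 0 central sequences, MDP0000678359 with 1 in each library, MDP0000233092 with 0 lateral and 1 central, and the 2 homeodomain-like proteins named above. MDP0000241185 had 1 lateral and 2 central sequences and MDP0000277813 had 1 in each. MDP0000233092 is matched to AT4G09350.1, in Arabidopsis a J-domain part of the plastid NDH complex. The counts of MDP0000249262, MDP0000213543 and MDP0000710378 ran against the name of their sheet.

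The LP sheet held no HSP70, HSP100, chaperonin or heat shock factor entry. Of these families the CP sheet held 1, 1, 3 and 1 entries, so few that no difference is read from their absence. The LP sheet held 6 members in all. Its members were MDP0000185220, listed as the J-domain protein required for chloroplast accumulation response 1 and known in Arabidopsis for chloroplast movement in light, with 1 lateral and 0 central sequences, and MDP0000221214, a DnaJ-related protein with none. RAD-like 6 (MDP0000335890) had 2 lateral and 1 central. The small HSP relative MDP0000207157 had 1 lateral and 0 central, and MDP0000610238, matched to AT5G04890.1, in Arabidopsis a membrane-bound protein that limits the spread of a virus through the phloem, had none. MDP0000122902 is a trigger factor type chaperone, which in bacteria receives new proteins at the ribosome, and it had no sequence. Another trigger factor model, MDP0000286595, is not a member and had 1 lateral and 2 central sequences.

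Counts and sheet names agreed only in part. Of the 6 LP members 3 had more lateral sequences, 0 had more central and 3 had none. Of the 15 CP members 3 had more lateral, 5 had more central, 5 were equal and 2 had none. Summed over entries, LP members held 4 lateral and 1 central sequences and CP members 11 lateral and 12 central. The whole sheets agreed only in part too. Of all 741 LP entries 233 had more lateral sequences, 116 more central, 233 were equal and 159 had none. Of all 844 CP entries 137 had more lateral, 287 more central, 230 were equal and 190 had none. The mismatch is thus not particular to the members.

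In the authors' deposited table of the sheets, FDR values of the members ranged up to 1.74e-07 on the LP sheet and up to 4.54e-05 on the CP sheet. All 6 LP members and 10 of the 15 CP members had a deposited FDR under 1e-06. Over the whole sheets this held for 611 of 741 LP entries and 623 of 844 CP entries, so low values are common to the sheets. The authors' deposited table lists an FDR of 0 for MDP0000122902 and MDP0000207157 on the LP sheet and for MDP0000213543 on the CP sheet. It lists 0 for 183 LP and 164 CP entries in all. The sheets do not give the counts behind those values, and 5 of the 21 members have no sequence in the table of gene models.

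Of the 215 log2 ratios in a separate file of the authors, 3 belong to members. The authors' deposited table gives 2.07 for heat shock transcription factor A2, -3.63 for the small HSP relative MDP0000207157 and -2.51 for the trigger factor type chaperone. Its first line names lateral over central as the direction, but every LP gene with a ratio is negative (113 of 113) and every CP gene positive (78 of 78), so the sign opposes the sheet names if read that way. No direction is taken from it. For heat shock transcription factor A2 the counts were 1 and 1, and for the trigger factor type chaperone 0 and 0. For MDP0000207157 they were 1 lateral and 0 central.

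The authors' deposited table of all gene models also carries Kal's Z-test. At its FDR under 0.05 that deposited table calls 36 of the 127 members with a sequence higher in the lateral library, or 28.3%, against 33.7% of all gene models with a sequence. It calls 40 lower in the lateral library, or 31.5%, against 34.0%. The members' shares thus lay near the background. In the authors' deposited table all 58 members with a sequence in only 1 library are called, and 42 of the 76 called members had at most 1 sequence in either library.

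Other genes of protein folding and of the heat response were searched by words. The words were for cyclophilins, FKBP-type isomerases, disulfide isomerases, prefoldins, trigger factors, BAG proteins, calreticulin and calnexin. Further words were for Clp, Lon and FtsH proteases, multiprotein bridging factors and galactinol synthases. Of 100 gene models found, 47 had a sequence, with 54 lateral and 46 central sequences. None (0) was called by the Fisher exact test, where the smallest unadjusted p was 0.124, against 0% called over all gene models. They had 7 entries on the LP sheet and 10 on the CP sheet, which carry 1.17% and 1.33% of all gene models. Of these 17 entries 13 were found by the sheets' annotation alone, so the entries were a way into this list too and no excess can be read from them. The CP entries included 2 models of multiprotein bridging factor 1C, a heat response regulator in Arabidopsis, of which MDP0000267538 had 1 sequence in each library and MDP0000565846 had none. Rotamase FKBP 1 (MDP0000141863), which in Arabidopsis modulates heat shock factor A2, had 2 lateral and 1 central sequences and a log2 ratio of 2.30 in the authors' deposited table, from whose sign no direction is taken. BCL-2-associated athanogenes, partners of HSP70, had entries for number 5 (MDP0000257313) with 0 lateral and 1 central sequence and for number 7 (MDP0000464941) with 1 in each. The LP entries included 2 models of galactinol synthase 4, which makes the precursor of raffinose sugars, each with 1 lateral and 0 central sequences. They also included PREFOLDIN 1 (MDP0000349965) with 1 lateral and 2 central, cyclophilin 20-2 (MDP0000703640) with none, and an FtsH extracellular protease family member (MDP0000289110) with 0 lateral and 3 central, against the name of its sheet.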

How the data were processed

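The authors deposited, per gene model and library, a count of mapped sequences, a count of uniquely mapped ones and RPKM. Per the file headers the input was a trimmed set of contigs of each library. The deposited RPKM values equal the count divided by the library total and the model length. The headers name Kal's Z-test for each deposited p-value and FDR of that table, and NOISeq for those of the LP and CP sheets. A further file deposited by the authors holds log2 ratios. How sequences were assembled and aligned, and to which gene model release, is not given in the sources used here. A further 12 columns with library values were left unused.

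Gene models with at least 1 sequence were tested with a two-sided Fisher exact test and Benjamini-Hochberg adjustment. A call needed an adjusted p under 0.05 together with a difference of 2-fold or more, with 0.5 added to each count. With 1 library per group edgeR's quasi-likelihood test cannot be fitted. The negative binomial exact test of edgeR 4.0.16, under R 4.3.3, took assumed coefficients of variation of 0.2 and 0.4. Both tests were run on simulated data with planted differences, where recovery was judged only at counts far above the real ones. That check does not bear on what the tests can find at the real counts. Family sums have 95% exact intervals and no test. Ratios are lateral over central. Named genes are all members on a sheet or with a deposited ratio, the members with most sequences, and the most abundant of each family. Members and lists were chosen with earlier results of these data known. Gene names are the authors' descriptions, and 0 members matched the reference gene table, so no coordinates are given. Python 3.11.15, numpy 2.4.6, pandas 2.3.3, scipy 1.17.1 and matplotlib 3.10.9 were used.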

Additional observations from a re-analysis of the deposited data

How the results depend on the processing

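Of 47 alternative values, 45 lay within the counting interval or within 1.5 times the main count and 0 reversed. The exceptions were the LP sheet entries among the members, 6 in all and 3 without entries lacking a sequence, and the median log2 ratio, 0.0090 from counts and 0.0088 from deposited RPKM with 1 added. The first follows from the setting itself, and the second reflects an interval of no width, since so many members had equal counts. The tally is no measure of robustness, since much of it could hardly have come out otherwise. No member could be called by the Fisher exact test at any split, and some settings left a family's members unchanged. Wide intervals also hold large moves, such as 1.51 to 2.32 for chaperonins within 0.552 to 5.62. The count of called gene models was 0, in the members and in all, with a minimum of 5 sequences, without a fold threshold, with uniquely mapped sequences and with edgeR's negative binomial exact test. Over all gene models it was also 0 with a minimum of 10, where no member is left to test. The ratio of the summed member sequences ran from 0.928, with the table's annotation alone, to 0.972 with uniquely mapped sequences. For small HSPs it was 0.747 with summed RPKM and 1.00 with uniquely mapped sequences, against 0.894. Settings that leave out the PTHR11821 models, the homeodomain-like and RAD-like entries, or models seen in 1 library were chosen after seeing the data. The alternatives were not run for the ratios of HSP70, with 0 lateral and 2 central sequences, and HSP100, with none. No paired analysis was possible because each group has 1 library.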

Other observations

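The gene ontology terms on the sheets were counted after their values were seen. The sheets hold 741 LP and 844 CP entries. The term response to stress had 0 LP and 6 CP entries, none (0) of them a member. Terms were read from the sheets only, so no share over all gene models stands beside these entries. No direction is taken from them. They are a dehydrin listed as cold-regulated 47 (MDP0000265874), late embryogenesis abundant proteins listed as drought-induced 21 (MDP0000324831) and, with 2 models, as senescence-associated gene 21 (MDP0000564193 and MDP0000755567), and 2 adenine nucleotide alpha hydrolases-like proteins (MDP0000271360 and MDP0000486799). Dehydrins and late embryogenesis abundant proteins protect cells that lose water. These 6 models held 2 lateral and 3 central sequences. MDP0000271360 and both models of senescence-associated gene 21 had no sequence in either library.

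The term protein folding had 5 LP and 7 CP entries, 1 and 2 of them members, and these models held 11 lateral and 6 central sequences. The term heat shock protein binding had 1 LP and 3 CP entries, each of them a DnaJ member, with 4 lateral and 2 central sequences. Unfolded protein binding had 1 LP and 3 CP entries, with 4 lateral and 3 central sequences. No interval was taken for these sums, and no direction is read from them.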
